A study of Glycine max with 12 samples.

Results

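The phenylalanine ammonia-lyase family of soybean (Glycine max) is described here in immature seed coats that were cut into a future black saddle and a future yellow region. The family was taken as 8 listed genes, Glyma.02G309300, Glyma.03G181600, Glyma.03G181700, Glyma.10G058200, Glyma.10G209800, Glyma.13G145000, Glyma.19G182300 and Glyma.20G180800, out of 56044 genes in the deposited table. The list rests on gene identity and no expression value was used to draw it up, although it was chosen with earlier results of these data known.

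Polyadenylated RNA was sequenced in 12 libraries, 3 biological repeats for each of 4 groups. These were the black saddle of Clark 18a, the yellow region of Clark 18a, the black saddle of Clark 8 and the yellow region of Clark 8. Clark 18a carries the alleles i-i and k1, and Clark 8 carries i-k and K1, so the lines differ at both the I and the K1 locus and a difference between them cannot be given to K1 alone. All plants were grown in a greenhouse, whole seeds weighed 100 to 200 mg fresh weight, and the dissected coats were freeze-dried. The study asked how expression differs between the lines and between the dissected regions of these two-coloured coats. Whether the repeats came from separate plants is not stated, and the p-values speak to the spread among these libraries alone.

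Phenylalanine ammonia-lyase removes ammonia from the amino acid phenylalanine and releases trans-cinnamic acid. It is the entry to the phenylpropanoid pathway, from which plants make lignin, flavonols, isoflavones, the proanthocyanidins of seed coats and the anthocyanins that colour black soybean seeds. Plants usually carry a small family of such genes, whose members are used to different degrees in different tissues.

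Each of the 8 genes had a single transcript model. The coding lengths correspond to proteins of 687 amino acids for Glyma.10G209800 and of 703 to 717 for the other 7. Glyma.20G180800 and Glyma.10G209800 had the longest non-coding parts of their transcripts, at 1055 and 791 bases, against 273 to 445 bases in the other 6 and a median of 470 over all genes. By identifier, Glyma.03G181600 and Glyma.03G181700 are neighbours on chromosome 3, with no other gene of the table between them. In the RefSeq annotation of assembly Glycine_max_v4.0, 8 genes carry a symbol made of PAL and a number, and they fall on the same chromosomes as the 8 identifiers, with 2 on chromosome 3, 2 on chromosome 10 and 1 each on chromosomes 2, 13, 19 and 20. The pair on chromosome 3 (PAL1.3 and PAL1.2) has no protein-coding gene between them there either. No line of that annotation carries a Glyma identifier, so the symbols are not assigned to single members.

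Levels are given as RPKM, hits scaled by the length of the transcript and by all hits of the library, as deposited. Because RPKM allows for transcript length, members can be set side by side. Summed hits per library ran from 83123127 to 192296346, and the 4 libraries of repeat 3 were the shallowest, with at most 89505760. Behind the level of each of 7 members lay 330 to 22401 hits per library, and behind Glyma.02G309300 8 to 49. These 7 members were above 1 RPKM in all 12 libraries, the lowest value being 1.31, and were tested among 30775 genes. Glyma.02G309300 did not pass the filter on low values (at least 1 RPKM in at least 3 libraries). Members of this family resemble each other in sequence, and how reads with several matches were counted is not given in the sources used here, so the value of any single member is uncertain to that extent. In bulk tissue, fewer cells of a type and less RNA per cell cannot be told apart.

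In the black saddle of both lines, 5 members were higher than in the yellow region, and Glyma.10G058200 was the most abundant of the family. In the yellow region the first place by mean went to Glyma.20G180800, followed by Glyma.10G209800. These 2 genes fell in the black saddle of Clark 18a, and in Clark 8 they did not pass. Between the lines no member passed in either region. The summed RPKM of the 8 genes was 123 ± 20.1 in black and 66.2 ± 12.2 in yellow in Clark 18a (mean ± SD, n = 3 each), and 147 ± 17.3 in black and 62.9 ± 18.2 in yellow in Clark 8. The ratio of the means, black over yellow, was 1.85 in Clark 18a and 2.34 in Clark 8, and black and yellow libraries lay apart in either line. The sum was not tested, because it mixes members that went opposite ways.

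**Figure D1:**
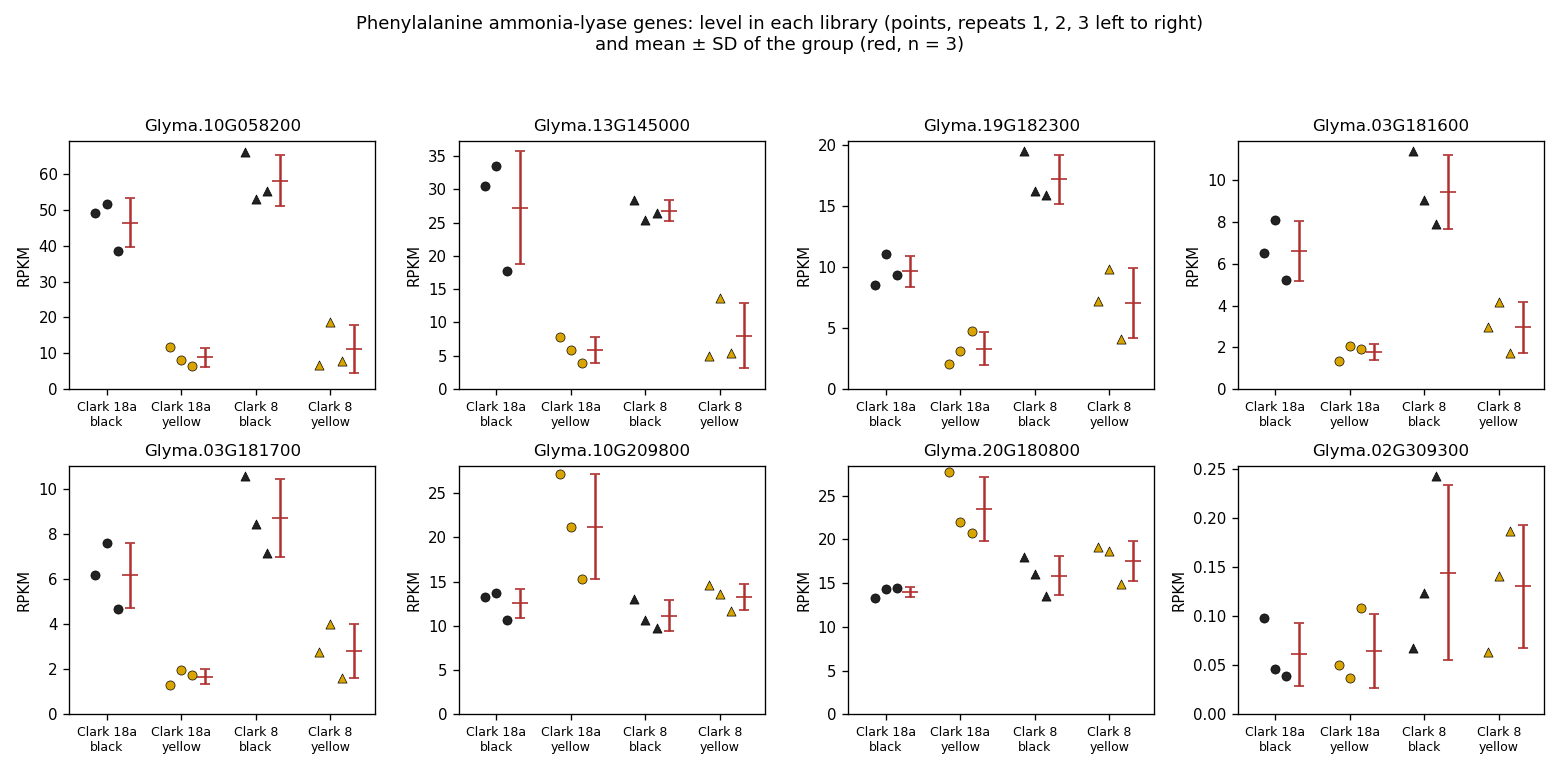
RPKM (vertical axis, starting at 0, its own scale in each panel) of each of the 8 genes in the 12 libraries, grouped by line and region on the horizontal axis; points are single libraries and red bars are the mean ± SD of 3. In the top row and in Glyma.03G181700 every black library lies above every yellow library of its line, whereas Glyma.10G209800 and Glyma.20G180800 are highest in the yellow region of Clark 18a, and Glyma.02G309300 stays at or below 0.242 RPKM.

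Differences were tested with limma on log2(RPKM + 1) over all 30775 genes, with p-values adjusted by the Benjamini-Hochberg method and a call at an adjusted p under 0.05, two-sided. Differences of log2(RPKM + 1) understate the change of low genes. In Clark 18a, black against yellow, 7 of the 7 tested members were called, 5 higher and 2 lower, against 15% of all genes tested (8.86% higher and 6.11% lower). In Clark 8, 5 of 7 were called and all of these were higher, against 13.9% of all genes (7.51% higher and 6.35% lower). The median difference of the tested members was 1.41 in Clark 18a and 1.39 in Clark 8, against medians of -0.02 and -0.07 over all genes tested. Black and yellow libraries were fully apart for 7 of 7 members in Clark 18a and 5 of 7 in Clark 8, where 30.5% and 35.6% of all genes tested had no overlap. With the repeat number as a block the same numbers of members were called, while the share of all genes called rose to 25.7% in Clark 18a and 24.3% in Clark 8.

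Glyma.10G058200 held the highest level of the family in black. Its repeats 1, 2 and 3 measured 49.1, 51.6 and 38.6 RPKM in the black saddle of Clark 18a, against 11.7, 8.20 and 6.41 in the yellow region. In Clark 8 they measured 66.4, 53.1 and 55.3 RPKM in black, against 6.77, 18.8 and 7.83 in yellow. In each line the lowest black library was more than any yellow one, and repeat 2 of Clark 8 yellow stood above the other yellow libraries. The ratio of means, black over yellow, was 5.29 in Clark 18a and 5.23 in Clark 8. In limma the gene rose by 2.30 on the log2 scale in Clark 18a (SE 0.321, adjusted p = 0.000746) and by 2.41 in Clark 8 (SE 0.321, adjusted p = 0.000564), in 3 of 3 repeats of each line.

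Glyma.13G145000 was next in black and moved much as Glyma.10G058200 did. It measured 30.5, 33.6 and 17.7 RPKM in the black saddle of Clark 18a, against 7.78, 5.91 and 3.92 in the yellow region. In Clark 8 it measured 28.5, 25.3 and 26.5 RPKM in black, against 4.88, 13.7 and 5.47 in yellow. Repeat 3 was low in Clark 18a black and repeat 2 was high in Clark 8 yellow, yet the regions of a line did not overlap. The rise was 2.03 in Clark 18a (SE 0.351, adjusted p = 0.00274) and 1.75 in Clark 8 (limma adjusted p = 0.00705). Glyma.10G058200 was above Glyma.13G145000 in each of the 12 libraries, by a ratio of 1.37 to 2.33.

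Glyma.19G182300 was also higher in black in both lines, at a level between those of Glyma.13G145000 and the chromosome 3 neighbours. It measured 8.50, 11.03 and 9.31 RPKM in the black saddle of Clark 18a, against 2.05, 3.07 and 4.76 in the yellow region. In Clark 8 it measured 19.5, 16.2 and 15.9 RPKM in black, against 7.21, 9.83 and 4.12 in yellow. The regions did not overlap in either line. The rise was 1.35 in Clark 18a (limma SE 0.276, adjusted p = 0.00728) and 1.23 in Clark 8 (limma SE 0.276, adjusted p = 0.0128). The call in Clark 8 was lost without repeat 1 of Clark 8 black (adjusted p = 0.0523), the highest value among the alternatives, the lowest being 0.00359.

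The neighbours Glyma.03G181600 and Glyma.03G181700 gave almost the same values. Glyma.03G181600 measured 6.54, 8.12 and 5.24 RPKM in the black saddle of Clark 18a, against 1.35, 2.08 and 1.93 in the yellow region. In Clark 8 it measured 11.4, 9.04 and 7.89 RPKM in black, against 2.95, 4.18 and 1.74 in yellow. Black and yellow libraries were apart in each line, and the rise was 1.45 in Clark 18a (limma adjusted p = 0.00185) and 1.43 in Clark 8 (limma adjusted p = 0.00200). Glyma.03G181700 averaged 6.17 ± 1.46 RPKM in black and 1.67 ± 0.340 in yellow in Clark 18a, and 8.72 ± 1.72 in black and 2.79 ± 1.20 in yellow in Clark 8 (SD, n = 3 each). It rose by 1.41 (limma adjusted p = 0.00244) and by 1.39 (limma adjusted p = 0.00279) in those lines. The ratio of Glyma.03G181600 to Glyma.03G181700 stayed between 1.03 and 1.12 in the 12 libraries. Reads shared between them were not tested, and the counts of members include both. With the pair taken as 1 gene, 6 of 6 were called in Clark 18a (4 higher and 2 lower) and 4 of 6 in Clark 8 (4 higher).

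Glyma.20G180800 went the other way in Clark 18a. It measured 13.3, 14.3 and 14.4 RPKM in the black saddle of Clark 18a, against 27.7, 22.0 and 20.8 in the yellow region. In Clark 8 it measured 18.0, 16.0 and 13.6 RPKM in black, against 19.1, 18.7 and 14.9 in yellow. The regions were apart in Clark 18a, while in Clark 8 they overlapped, although each repeat was lower in black than in yellow. In limma it fell by 0.70 in Clark 18a (SE 0.152, adjusted p = 0.0102). In Clark 8 the difference was -0.14 (95% confidence interval -0.47 to 0.20, limma adjusted p = 0.626).

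Glyma.10G209800 had the same pattern with less certainty. It measured 13.3, 13.7 and 10.7 RPKM in the black saddle of Clark 18a, against 27.2, 21.2 and 15.3 in the yellow region. In Clark 8 it measured 13.1, 10.6 and 9.70 RPKM in black, against 14.6, 13.6 and 11.6 in yellow. The regions were apart in Clark 18a and overlapped in Clark 8. It fell by 0.69 in Clark 18a (limma SE 0.199, adjusted p = 0.0398), and the difference in Clark 8 was -0.24 (95% confidence interval -0.68 to 0.20, limma adjusted p = 0.498). The call in Clark 18a was lost with only the 6 libraries compared (adjusted p = 0.118). It was also lost without repeat 1, 2 or 3 of Clark 18a black (0.0536, 0.0678 and 0.121), repeat 1 or 2 of Clark 18a yellow (0.151 and 0.111), repeat 2 of Clark 8 black (0.0588) or repeat 1 or 2 of Clark 8 yellow (0.0526 and 0.0589). The alternatives spanned adjusted p-values of 0.00319 to 0.151.

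Glyma.02G309300 was near 0 everywhere. It averaged 0.0611 ± 0.0320 RPKM in black and 0.0648 ± 0.0378 in yellow in Clark 18a, and 0.144 ± 0.0892 in black and 0.130 ± 0.0625 in yellow in Clark 8 (SD, n = 3 each). All groups overlapped, and the highest library, repeat 3 of Clark 8 black, reached 0.242 RPKM from 48 hits. No statement on its direction is made at this depth.

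**Figure D2:**
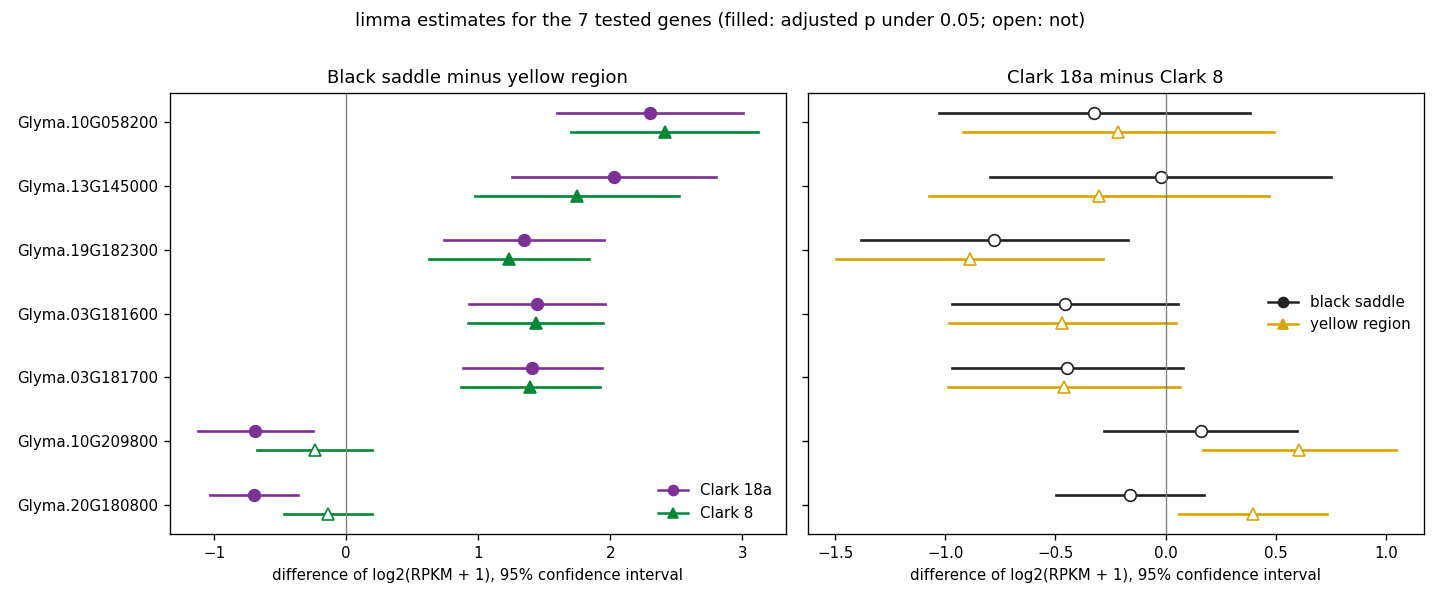
Differences of log2(RPKM + 1) from limma (horizontal axis) with 95% confidence intervals for the 7 tested genes (rows), black minus yellow for each line on the left and Clark 18a minus Clark 8 in each region on the right; filled symbols have an adjusted p under 0.05. On the left 5 genes lie above 0 in both lines and the lowest 2 rows lie below 0, filled in Clark 18a only; on the right no symbol is filled.

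The family's summed RPKM was made up of different members in different proportions. The 5 members that rose made up 78.1% ± 2.61 of the sum in black and 32.6% ± 1.81 in yellow in Clark 18a, and 81.6% ± 1.02 in black and 48.9% ± 10.4 in yellow in Clark 8 (SD, n = 3 each). Glyma.10G209800 and Glyma.20G180800 together made up 21.9% ± 2.62 in black and 67.3% ± 1.87 in yellow in Clark 18a, and 18.3% ± 1.08 in black and 50.8% ± 10.4 in yellow in Clark 8. The groups of members were formed from these same values, so the shares are a description without a test. Glyma.10G058200 alone gave 37.9% ± 0.908 of the sum in Clark 18a black and 39.5% ± 1.19 in Clark 8 black.

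**Figure D3:**
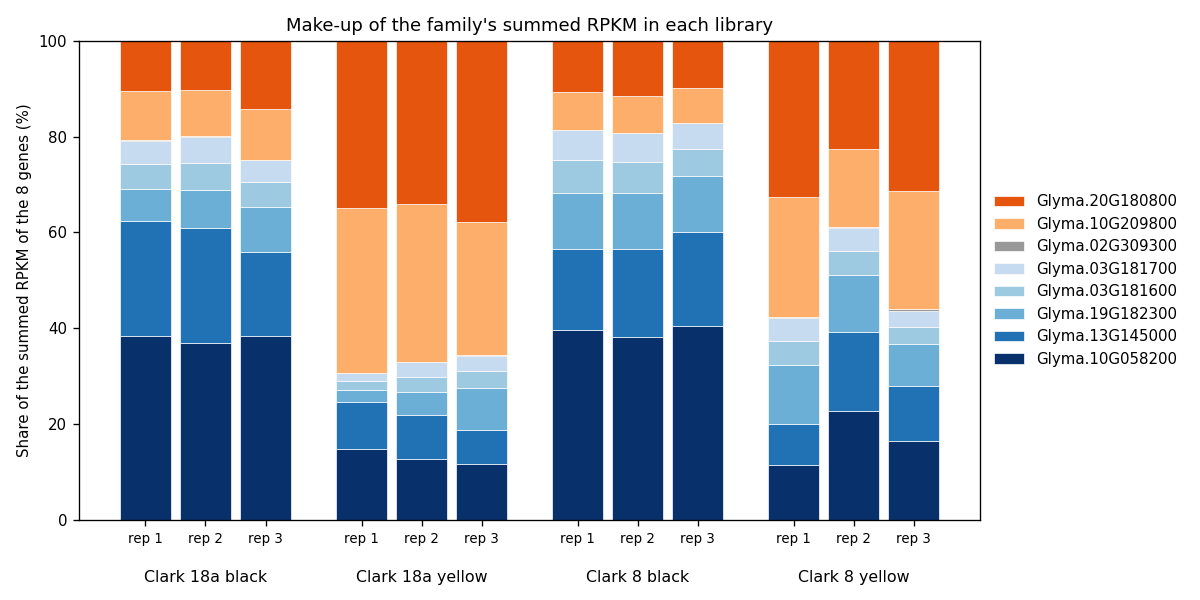
Share of the summed RPKM of the 8 genes (vertical axis, %) contributed by each gene, 1 bar per library, ordered by group and repeat on the horizontal axis. Orange segments (Glyma.10G209800 and Glyma.20G180800) fill 17.1% to 24.9% of the black bars and 38.9% to 69.3% of the yellow bars, the lowest yellow bar being repeat 2 of Clark 8.

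Ranked by mean RPKM, the order changed with the region. In both black groups Glyma.10G058200 led and Glyma.13G145000 followed, and the libraries of these 2 genes did not overlap with each other or with those of the gene ranked next. The third place in black was held by Glyma.20G180800 in Clark 18a and by Glyma.19G182300 in Clark 8, each overlapping with the gene ranked below it. In both yellow groups Glyma.20G180800 led and Glyma.10G209800 came next. They overlapped in Clark 18a yellow but not in Clark 8 yellow, where Glyma.10G058200 overlapped with both. In repeat 2 of Clark 8 yellow, Glyma.10G058200 (18.8 RPKM) was above Glyma.20G180800 (18.7 RPKM), so the lead there is one of means. The neighbours on chromosome 3 were next to last and the last of the tested members in all 4 groups.

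Repeat 2 of Clark 8 yellow stood apart from the other yellow libraries of its line. There the 5 members that rose in black summed to 50.5 RPKM, against 24.6 and 20.8 RPKM in repeats 1 and 3, whereas Glyma.10G209800 and Glyma.20G180800 summed to 32.3 RPKM, against 33.7 and 26.6. Over the 2721 other genes called higher in black in Clark 18a, that library's median offset from repeats 1 and 3 was 0.05 on the log2(RPKM + 1) scale. Over the 1879 called lower it was -0.03, and over all genes tested 0.0046. Repeats 1 and 3 of Clark 8 yellow, each against the other repeats of the group, gave -0.02 and -0.03 over the 2721 genes. Over the 1879 they gave -0.05 and 0.08. Repeats 1, 2 and 3 of Clark 8 black gave 0.00079, -0.06 and 0.06 over the 2721. In Clark 18a yellow, repeats 1, 2 and 3 gave -0.08, -0.03 and 0.11 over the 2306 other genes called higher in black in Clark 8. Over the 1955 called lower there they gave -0.008, -0.02 and 0.03. Whether black tissue was carried over into repeat 2 of Clark 8 yellow was not tested beyond these values. Without it, the difference between regions in Clark 8 was 2.83 for Glyma.10G058200 and 2.17 for Glyma.13G145000.

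Between the lines, no member passed. In the black saddle, Clark 18a against Clark 8, 0 of 7 tested members were called by limma, against 0.0812% of all genes. An unadjusted p under 0.05 was found for 1 member and for 1726 of the 30775 genes tested. In the yellow region 0 of 7 were called, against 0.413% of all genes, and 3 members and 4115 of all genes had an unadjusted p under 0.05. With the repeat number as a block 0 of 7 were called in each region, and the share of all genes called was 0.169% in black and 0.676% in yellow. In that fit an unadjusted p under 0.05 was found for 3 members and 3652 of all genes in black. In yellow it was found for 5 members and 6934 of all genes. With so few calls across all genes, a missing call among 7 members does not show that their levels were alike in the lines.

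The gene with the largest differences between lines was Glyma.19G182300, at 9.61 ± 1.29 RPKM in Clark 18a black and 17.2 ± 1.99 in Clark 8 black (SD, n = 3 each). The libraries did not overlap, as for 2 of 7 members and 7.99% of all genes tested, and the difference of -0.78 (95% confidence interval -1.38 to -0.17) did not pass (limma adjusted p = 0.868). In yellow it averaged 3.30 ± 1.37 RPKM in Clark 18a and 7.05 ± 2.86 in Clark 8, a difference of -0.89 (95% confidence interval -1.50 to -0.28, limma adjusted p = 0.204). By repeat the yellow differences were -1.43, -1.41 and 0.17, so the sign turned in repeat 3, and the black ones were -1.11, -0.52 and -0.71. Repeats 1 and 2 were numbered as libraries by line and repeat 3 as a series of its own across lines, so in repeats 1 and 2 the line and the set of libraries cannot be told apart. Without repeat 3 the yellow difference passed (-1.42, limma adjusted p = 0.00909), in a fit that called 3489 of 29946 genes.

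Glyma.10G209800 and Glyma.20G180800 were the members with higher means in Clark 18a yellow than in Clark 8 yellow. Glyma.10G209800 averaged 21.2 ± 5.97 RPKM in Clark 18a and 13.3 ± 1.50 in Clark 8, a difference of 0.61 (95% confidence interval 0.17 to 1.05, limma adjusted p = 0.225). The adjusted p was 0.0554 with the block, and the gene passed without repeat 3 (0.0291). That last fit called 3489 of 29946 genes. It rests on repeats 1 and 2, where the line and the set of libraries cannot be told apart. Glyma.20G180800 averaged 23.5 ± 3.69 RPKM in Clark 18a and 17.6 ± 2.30 in Clark 8, a difference of 0.40 (95% confidence interval 0.06 to 0.73, limma adjusted p = 0.304). For both genes the yellow libraries of the lines did not overlap, which held for 17.9% of all genes tested, and each of the 3 repeats was higher in Clark 18a. In black their differences were 0.16 and -0.16, with overlapping libraries.

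For the other 4 tested members the line differences lay between -0.46 and -0.02 in black and between -0.47 and -0.22 in yellow, and each 95% confidence interval held 0 without the block. With the repeat number as a block the interval of Glyma.03G181600 left out 0 in black (-0.88 to -0.03, limma adjusted p = 0.392) and in yellow (-0.89 to -0.04, limma adjusted p = 0.188). That of Glyma.03G181700 did so too (-0.85 to -0.04 in black and -0.87 to -0.05 in yellow), and neither gene passed. In that fit 3652 of 30775 genes in black and 6934 in yellow had an unadjusted p under 0.05. The block matches the lines by repeat number, which the labels do not tie to a shared batch. Glyma.10G058200 averaged 46.4 ± 6.87 RPKM in Clark 18a black and 58.2 ± 7.13 in Clark 8 black, with no overlap between the libraries, and the difference of -0.32 had an interval of -1.03 to 0.38. In yellow, the differences of Glyma.10G058200 and Glyma.13G145000 turned to 0.20 and 0.12 without repeat 2 of Clark 8 yellow.

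The test of whether the difference between regions itself differed between the lines called 0 of 7 members, against 0.0162% of all genes (limma, 5 genes, and 0 genes or 0% with the repeat number as a block). The largest value in size was that of Glyma.20G180800, -0.56 (95% confidence interval -1.03 to -0.08, unadjusted p = 0.0250, limma adjusted p = 1.00), and without the block it was the single member with an unadjusted p under 0.05. Over all genes, 767 of the 30775 tested had an unadjusted p under 0.05 without the block. Glyma.10G209800 had -0.45 (95% confidence interval -1.07 to 0.17). With the repeat number as a block 1405 of all genes had an unadjusted p under 0.05, and both of these members had an interval that left out 0. It ran from -0.94 to -0.18 for Glyma.20G180800 (unadjusted p = 0.00850, limma adjusted p = 0.981) and from -0.82 to -0.08 for Glyma.10G209800 (unadjusted p = 0.0229, limma adjusted p = 1.00). With a block for each repeat within its line, 3146 of all genes had an unadjusted p under 0.05. The limma adjusted p was then 0.302 for Glyma.20G180800 (unadjusted p = 0.00735) and 0.377 for Glyma.10G209800 (unadjusted p = 0.0194). The fall of these 2 genes in black is therefore called in Clark 18a and not in Clark 8, without being shown to differ between the lines. For the 5 members that rose, the values lay between -0.11 and 0.28.

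From library to library within a region, some members varied together and others did not. Among the 21 pairs of the 7 tested members, Pearson's r on log2(RPKM + 1) ran from -0.244 to 0.998 over the 6 black libraries of both lines, with 2 pairs below 0, and from -0.734 to 0.998 over the 6 yellow libraries, with 6 below 0. The value for Glyma.10G058200 with Glyma.13G145000 was 0.644 in black and 0.991 in yellow. For Glyma.10G209800 with Glyma.20G180800 it was 0.173 in black and 0.95 in yellow. Glyma.03G181600 and Glyma.03G181700 gave 0.998 in black and 0.998 in yellow, and Glyma.19G182300 gave 0.867 in black and 0.930 in yellow with Glyma.03G181600. The lowest value in either region was that of Glyma.10G209800 with Glyma.19G182300. Glyma.19G182300 with Glyma.20G180800 gave 0.730 in black and -0.564 in yellow, and Glyma.13G145000 with Glyma.20G180800 gave -0.0113 in black and 0.0945 in yellow. These are descriptions over 6 libraries that mix the lines and the repeats, and no test was made.

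**Figure D4:**
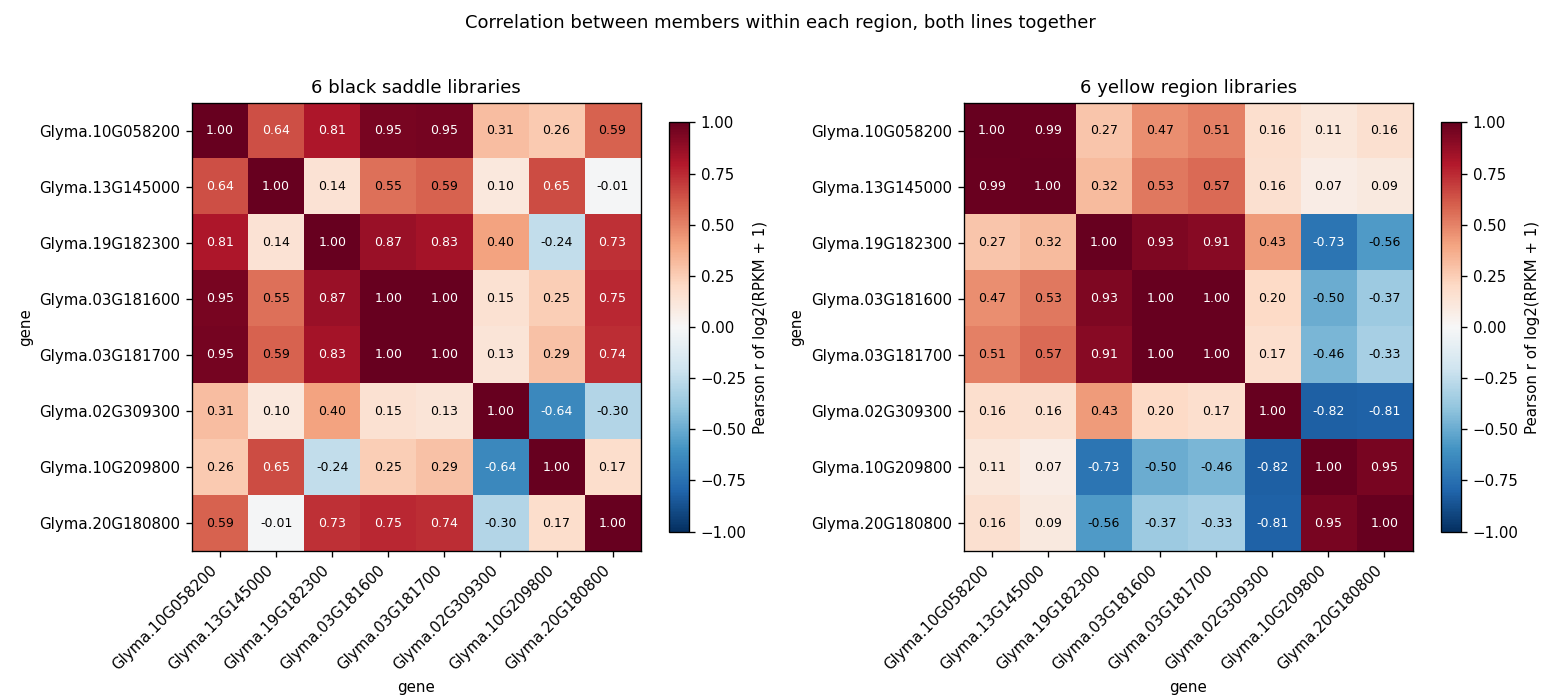
Pearson correlation of log2(RPKM + 1) between members (both axes), over the 6 black saddle libraries on the left and the 6 yellow region libraries on the right, with red for positive and blue for negative values. Glyma.10G209800 and Glyma.20G180800 correlate at 0.17 in black and 0.95 in yellow, and the neighbours on chromosome 3 at 1.00 in both.

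Across all 12 libraries, which hold both regions, the gene most like Glyma.10G058200 among the other 30774 tested was another member, Glyma.13G145000 (Pearson's r = 0.985). The chromosome 3 neighbours ranked 220 and 226 (both r = 0.936), Glyma.19G182300 ranked 1903 (0.818), and Glyma.10G209800 and Glyma.20G180800 had r = -0.543 and -0.623. The 3 genes outside the family most like it were Glyma.19G110200 (0.976), Glyma.07G097900 (0.968) and Glyma.18G065700 (0.964). For Glyma.20G180800, the member with the next highest mean, they were Glyma.06G187100 (0.934), Glyma.11G053900 (0.920) and Glyma.01G218800 (0.913), and Glyma.10G209800 ranked 21 (0.875). For the summed RPKM of the family they were Glyma.11G230700 (0.957), Glyma.11G011500 (0.955) and Glyma.15G218200 (0.955). The table gives no name or function for these genes.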

How the data were processed

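One table of RPKM values, made by the authors, covers 12 seed coat libraries and 88647 transcript models (56044 genes) and lists coding and cDNA lengths, per the file headers. The submitters' processing notes name Bowtie 1. Genome build, annotation, strandedness and the counting of multiply matching reads are not given in the sources used. Multiplied by cDNA length, low RPKM values were whole multiples of 1 hit (100% within 0.05 of a hit), which gave total hits and the hits of each member.

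The model with the longest cDNA stood for each gene. Genes needed 1 RPKM or more in 3 or more libraries. On log2(RPKM + 1), limma 3.58.1 (R 4.3.3) estimated a mean for each of the 4 groups, with a trend of the variance on the level and residual variance pooled over the 12 libraries. The fitting code was tested on simulated data with independent noise in each library. That test cannot bear on effects shared by same-numbered repeats. For 3 libraries against 3, the smallest p of an exact permutation test is 0.1. Same-numbered repeats deviated together from their group means. Over genes, r was 0.522 to 0.745 between the regions of a line and 0.124 to 0.503 between the lines. The fit reported held no block for the repeat, so its p-values do not use this pairing, and the block was run as an alternative.

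All 8 members are described whatever their result. For the 2 members with the highest mean and for the family sum, the 3 most correlated other genes are named. Alternatives covered the pseudocount, the filter, weights, scaling, the choice of model, each library left out, the repeat as a block and voom on recovered hits. A block for each repeat within its line was added after seeing the data. The members, lists and tests were chosen with earlier results of these data known. Pathway and marker lists were not used, since no table used here annotates their identifiers, and the tissue label was not checked against markers for the same reason.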

Additional observations from a re-analysis of the deposited data

How the results depend on the processing

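The 12 called results of single members kept their direction under each alternative run (26 for each), and the calls lost were those of Glyma.10G209800 in Clark 18a and Glyma.19G182300 in Clark 8 given above. The number of members called ran from 6 to 7 between the regions of Clark 18a and from 4 to 5 in Clark 8 when each library was left out in turn, and stayed at 0 between the lines in black and for the difference between lines of the region difference under each alternative. Between the lines in yellow it was 5 with array weights, where 7318 of all 30775 genes tested were called. It was 2 without the 4 libraries of repeat 3 (3489 of 29946 genes). With the replicate block and voom on recovered hits it was 1 (2010 of 30775 genes), and under the other alternatives it was 0. The 5 members called with array weights were Glyma.19G182300 (-1.38, limma adjusted p = 0.00169), Glyma.03G181600 (-0.80, 0.0106), Glyma.03G181700 (-0.78, 0.0119), Glyma.10G209800 (0.69, 0.00640) and Glyma.20G180800 (0.36, 0.0354). That fit gave the largest weight, 5.06, to repeat 2 of Clark 8 yellow, the library described above as standing apart, against 0.338 to 2.59 for the other 11. The part of this weight in the 5 calls was not tested.

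On log2(RPKM + 1) the replicate block changed no call of a member: 7 were called between regions in Clark 18a and 5 in Clark 8, also with a block for each repeat within its line. With voom on recovered hits the block added 1 call, Glyma.10G209800 between the lines in yellow (0.63, limma adjusted p = 0.0297). The number of all genes called moved more, over all alternatives from 2191 to 12016 in Clark 18a and 1958 to 11431 in Clark 8 between regions (4607 and 4266 as reported), from 11 to 1202 in black (25) and 3 to 7318 in yellow (127) between lines, and from 0 to 28 for the difference between lines of the region difference (5).

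Sign changes touched uncalled values only. Glyma.13G145000 between lines in black (-0.02) was 0.15 with array weights, 0.25 without the libraries of repeat 3, and from -0.19 to 0.25 with single libraries left out. Between lines in yellow, single omissions gave Glyma.10G058200 -0.47 to 0.20 and Glyma.13G145000 -0.55 to 0.12. For the difference between lines of the region difference, single omissions gave Glyma.03G181600 -0.21 to 0.25, Glyma.03G181700 -0.21 to 0.26, Glyma.10G058200 -0.53 to 0.15, Glyma.13G145000 -0.14 to 0.55 and Glyma.19G182300 -0.13 to 0.41. There Glyma.03G181600 (0.01) was -0.0090 with quantile normalization and -0.050 with TMM scaling, Glyma.03G181700 (0.02) was -0.0040 and -0.044, and Glyma.10G058200 (-0.11) was 0.37 with array weights.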
